A study of Mus musculus with 25 samples.

Results

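The comparison described here asked what trichostatin A (TSA) added or took away in mouse cloned embryos in which the histone methyltransferase G9a was already inhibited by RK-701. It used 5 of the 25 RNA-seq libraries, 2 from embryos given TSA and RK-701 (CC_TG) and 3 from embryos given RK-701 alone (CC_G), and was read over the 25794 autosomal genes that averaged at least 1 read per library. All 5 libraries came from late 2-cell embryos made by somatic cell nuclear transfer (SCNT) of cumulus cells of BDF1 females into BDF1 oocytes, with latrunculin A in the activation medium. RK-701 was given at 1 µM for 24 h in both groups, and TSA at 25 nM for the first 8 h in CC_TG. Other groups of the series served for comparison: SCNT embryos with no inhibitor (CC_cont, n = 2), with TSA alone (CC_T, n = 2), with the G9a inhibitor A366 at 1 µM without TSA (n = 2) or with TSA (n = 2), with the inhibitor UNC0638 and TSA (n = 2), SCNT embryos made without latrunculin A that were not injected (n = 2) or were injected with Kdm3a (n = 2) or Kdm4d (n = 2), which encode H3K9 demethylases, and embryos from in vitro fertilization (IVF, n = 4). The RNA of a library came from pooled embryos, so fewer embryos or blastomeres expressing a gene and less RNA per cell cannot be told apart. The labels do not say whether the libraries of a group came from separate rounds of nuclear transfer. The p-values of gene tests thus measure only the spread between libraries within groups, estimated over all 25 libraries of 11 groups.

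G9a places mono- and dimethyl marks on lysine 9 of histone H3, a modification of silent chromatin. TSA blocks histone deacetylases and so raises histone acetylation, a mark of active chromatin, and is widely used to help cloned embryos develop. In the mouse the embryonic genome is switched on at the late 2-cell stage (zygotic genome activation, ZGA), while transcripts stored in the oocyte are being removed. A cloned embryo has to start this program from the chromatin of a somatic nucleus.

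The 5 libraries held 10472261 to 15589564 counts on genes. Correlations of log2(TPM + 1), where TPM is the length-scaled level per 1000000 transcripts, within a group were 0.953 to 0.966 and between the groups 0.892 to 0.931. The RK-701 libraries stood apart from the other libraries with latrunculin A in several gene groups described below. The labels give no session or batch, so for these groups a difference of the 3 RK-701 libraries that has another source than TSA cannot be told apart from the effect of TSA. Ribosomal protein genes took 1.07%, 1.21% and 1.35% of their counts, on either side of the range of the IVF libraries (1.25 to 1.32%). Every other SCNT library of the series held 1.59 to 2.22%. The 6 Tcl1 family genes summed to 4232 to 6776 CPM (counts per 1000000 counts, scaled by TMM factors) in the RK-701 libraries and 5350 to 6388 in IVF, but to 851.5 to 2830 in the other libraries with latrunculin A; the SCNT libraries without it, those injected with Kdm3a or Kdm4d included, ranged from 1681 to 7191. The 15 testable cumulus cell genes summed to 63.1 to 87.5 CPM in CC_G and 71.8 to 80.5 CPM in CC_TG. In IVF, which has no cumulus donor nucleus, they summed to 91.0 to 117.8 CPM. None of them passed the test between CC_TG and CC_G. Both groups had cumulus nuclei, so that test does not address the donor origin.

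A gene was called when its adjusted p in edgeR's quasi-likelihood test was under 0.05 and its level changed more than 2-fold. With TSA, 1376 genes were higher (5.33% of those tested) and 1267 were lower (4.91%), 2643 in either direction (10.2%). The median log2 fold change of all genes was -0.11. These counts rest partly on single libraries. Without CC_TG replicate 2, 1300 genes were called, 856 higher and 444 lower, with the remaining CC_TG library assumed to vary like the other groups, and without CC_G replicate 1 there were 1834, of which 840 were lower.

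**Figure D1:**
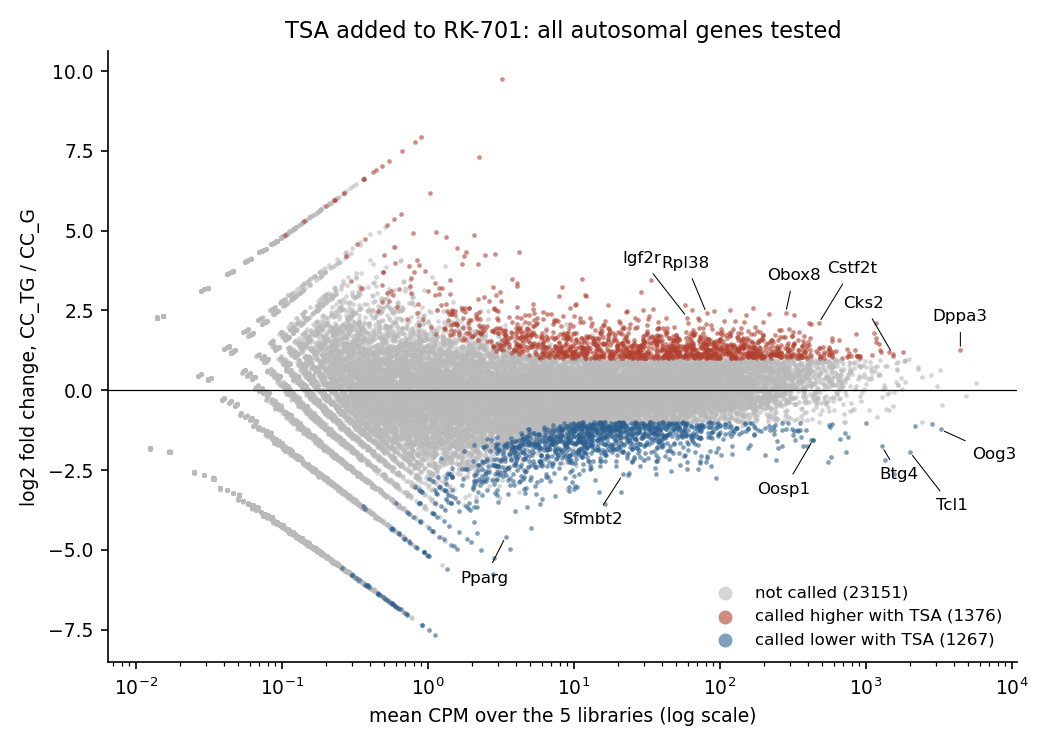
Mean CPM over the 5 libraries (x axis, log scale) against the log2 fold change of CC_TG over CC_G (y axis), 1 point per autosomal gene tested. Red points are the 1376 genes called higher with TSA and blue points the 1267 called lower. The diagonal streaks at the left are genes with few reads.

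Ribosomal protein genes, which encode the protein part of the ribosome, rose together. All 75 tested had both CC_TG libraries above all 3 CC_G libraries, as had 22.2% of all genes, and 51 of them (68.0%) were called higher and none lower, against 5.33% of all genes. Their median log2 fold change was 1.13. This family was picked out after its values had been seen. Rpl38, a protein of the large subunit, had 140.2 and 175.9 CPM with TSA and 24.6, 30.3 and 34.2 CPM without, an increase of 2.41 on the log2 scale (SE 0.20, adjusted p = 2.05e-08). Rpl13, also of the large subunit, rose from 39.3, 27.2 and 29.6 CPM to 149.1 and 212.1 CPM (log2 2.49, SE 0.31, adjusted p = 2.81e-06). For both genes the groups were far apart. Rps2, of the small subunit, rose by 1.91 (SE 0.20, adjusted p = 3.3e-07), from 39.3 to 44.9 CPM in CC_G to 133.7 and 181.8 CPM in CC_TG. The most abundant member, Rpl41, rose by 1.19 (SE 0.17, adjusted p = 1.48e-05), from 649.2, 1063 and 825.5 CPM to 1752 and 2099 CPM. At the other end Rpl7a had 91.8 and 102.1 CPM with TSA and 78.4 to 85.4 CPM without (log2 0.26, adjusted p = 0.325), and Rplp0 had 1051 and 1066 CPM against 676.4 to 868.8 CPM (log2 0.44, adjusted p = 0.142). Without CC_G replicate 1, which had the lowest share of ribosomal protein counts, 39 were called, and without CC_TG replicate 2, 44.

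The same genes moved little when TSA was added to A366, a comparison that shares no library with this one: 0 of 75 were called in either direction, with a median of 0.24. With TSA alone against CC_cont, 0 of 75 were called and the median was 0.25. In the test of the difference itself, the TSA effect with RK-701 exceeded that with A366 for 29 of the 75 (2.00% of all genes) and that without an inhibitor for 22 (1.38% of all genes). These counts were 12 and 1 without CC_TG replicate 2 and 19 and 13 without CC_G replicate 1. CC_TG and the A366 libraries nonetheless held like shares, 2.04 and 2.22% of counts in CC_TG, 1.92 and 1.94% with A366 alone and 1.97 and 2.00% with TSA and A366. The RK-701 libraries without TSA, at 1.07 to 1.35%, were the ones that stood apart.

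**Figure D2:**
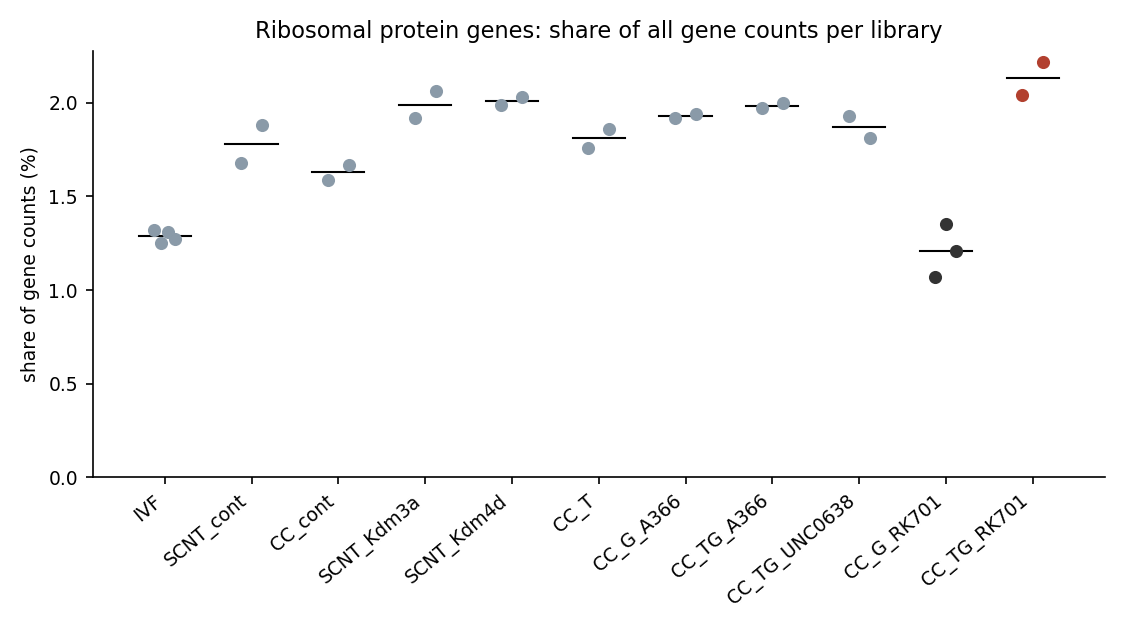
Share of gene counts on ribosomal protein genes, X-linked ones included (y axis, percent), in each of the 25 libraries, grouped along the x axis. Black lines are group means. The 3 RK-701 libraries (dark) lie at 1.07 to 1.35%, next to IVF, and the 2 libraries with TSA and RK-701 (red) at 2.04 and 2.22%.

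Promoters of the ribosomal protein genes were examined because the family moved together. Of the 54 with a promoter in RefSeq (GRCm38.p6; 250 bases before to 50 after the start), 23 (42.6%) held CCGGAAG, the core recognised by ETS family activators, on either strand, against 16.4% of 12541 protein-coding genes tested. Over all called protein-coding genes with a promoter, it was present for 270 of 840 called higher (32.1%) and 79 of 769 called lower (10.3%). Counts were also made for TCACGTGA and GGCGGGAA in these windows. TCACGTGA was held by 1.85% of the ribosomal protein genes, 1.9% of genes called higher, 1.17% of those called lower and 1.68% of all. For GGCGGGAA the shares were 7.41%, 5.6%, 3.38% and 4.05%. CCGGAAG contains a CpG, and the median number of CpG per window also differed, 22 for genes called higher, 17 for those called lower and 19 for all. The stretches below run from 70 bases before to the first 20 bases after the start, 5′ to 3′ on the strand of the gene, with each CCGGAAG or its reverse complement CTTCCGG in capitals. They show where the motif lies in 4 called ribosomal protein genes, at chr11:114668510-114668599 (Rpl38, plus strand), chr12:28635934-28636023 (Rps7, minus strand), chr1:39367781-39367870 (Rpl31, plus strand) and chr10:128549149-128549238 (Rpl41, minus strand), and, for contrast, Rpl13 at chr8:123102280-123102369 (plus strand), which rose as much as Rpl38 without the motif in this window, and Btg4 at chr9:51115931-51116020 (plus strand), which was lower with TSA.
Rpl38: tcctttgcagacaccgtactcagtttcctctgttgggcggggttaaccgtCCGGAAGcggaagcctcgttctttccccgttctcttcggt
Rps7: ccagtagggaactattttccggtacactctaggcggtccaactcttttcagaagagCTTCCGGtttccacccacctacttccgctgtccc
Rpl31: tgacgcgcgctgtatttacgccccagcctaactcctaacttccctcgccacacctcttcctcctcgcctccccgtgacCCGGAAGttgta
Rpl41: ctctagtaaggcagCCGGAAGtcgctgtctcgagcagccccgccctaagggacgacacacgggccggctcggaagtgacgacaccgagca
Rpl13: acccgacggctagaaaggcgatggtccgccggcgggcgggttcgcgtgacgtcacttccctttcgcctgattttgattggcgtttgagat
Btg4: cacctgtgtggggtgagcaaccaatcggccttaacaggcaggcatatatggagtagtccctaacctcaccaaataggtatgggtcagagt

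Other genes of the basic machinery of the cell moved in the same direction. Of 68 nuclear genes of oxidative phosphorylation, 27 (39.7%, against 5.33% of all genes) were called higher and none lower, with a median of 0.86. Cox7c, a subunit of cytochrome c oxidase, had 112.5 and 156.5 CPM with TSA and 21.6, 36.0 and 25.4 CPM without (log2 2.28, SE 0.24, adjusted p = 3.86e-07). Counts on mitochondrial genes went the other way, from 4.55 to 5.12% of the library in CC_G to 3.85% in both CC_TG libraries. Of 38 proteasome subunit genes, 10 (26.3%) were called higher and 1 lower (2.63%, against 4.91% of all genes), with a median of 0.66. The one called lower, Psmb8 of the immunoproteasome, had 1 read in each CC_TG library, and its call was lost without either of them or without CC_G replicate 1. Both families were chosen after their values were seen, and with A366, where 3.09% of all genes were called higher, 3 of 68 and 13 of 38 were. Among abundant genes that were called higher, Cks2, a partner of cyclin-dependent kinases, rose from 894.2 to 1232 CPM to 2183 and 2345 CPM (log2 1.14, SE 0.18, adjusted p = 6.9e-05), and Gcsh of the glycine cleavage system rose by 1.20 (SE 0.22, adjusted p = 0.000247).

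The median fold change followed gene length and level. Over 5 equal bins of the protein-coding genes with a mean of at least 1 CPM by summed exon length it fell from 0.20 in the shortest to -0.19 in the longest, and over 5 bins by level it rose from -0.45 to 0.35. The trends were alike when TSA was added to A366, from 0.19 to -0.22 and from -0.44 to 0.34, and with TSA alone they ran from -0.05 to 0.04 and from -0.23 to 0.13. The mean length of the gene behind a count was 4275 to 4352 bases in CC_G and 4062 and 4166 bases in CC_TG. The part of these trends in the results for short, abundant genes was not tested.

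Of 19 genes whose transcripts are stored in the oocyte, 5 (26.3%) were called lower with TSA, against 4.91% of all genes, 1, Dppa3, was called higher, and 13 were not called. The list's median was -0.63, and 13 of 19 had both CC_TG libraries below all of CC_G, as had 23.8% of all genes. The summed level of the list, in which Dppa3 is the most abundant gene, was nonetheless higher with TSA, 8003 and 8956 CPM against 6308 to 7391 CPM. Btg4, an adaptor for the deadenylase that removes maternal mRNA, had 541.6 and 524.8 CPM with TSA and 2120, 1283 and 1967 CPM without, and fell by 1.75 on the log2 scale (SE 0.20, adjusted p = 1.35e-06). Oosp1, an oocyte-secreted protein, fell by 1.55 (SE 0.22, adjusted p = 1.13e-05), from 672.1, 510.7 and 588.4 CPM to 211.7 and 191.7 CPM. Bcl2l10, an apoptosis regulator of the oocyte, fell by 1.56 (SE 0.23, adjusted p = 2.06e-05). Gdf9, a growth factor that the oocyte secretes, fell by 1.14 (SE 0.19, adjusted p = 9.15e-05), and Nlrp4f by 1.04 (SE 0.22, adjusted p = 0.00114), a call lost without CC_TG replicate 2 or CC_G replicate 1. Dppa3, which protects the maternal genome against demethylation, went the other way, from 2610, 3005 and 2963 CPM to 6210 and 7387 CPM (log2 1.25, SE 0.18, adjusted p = 1.7e-05).

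Calls were also made in 3 families of oocyte genes that lie in clusters, again picked out after their values were seen. All 6 genes of the Tcl1 family, kinase co-activators abundant in the oocyte and early embryo, were called lower, with a median of -1.75. Tcl1 itself had 863.4 and 622.6 CPM with TSA and 3736, 1933 and 2856 CPM without (log2 -1.94, SE 0.45, adjusted p = 0.0029), and Tcl1b5 fell by 2.04 (SE 0.37, adjusted p = 0.00029). Omt2a and Omt2b, oocyte transcripts of the same cluster on chromosome 9, fell by 1.06 (SE 0.19, adjusted p = 0.0003) and 1.12 (SE 0.23, adjusted p = 0.000937). Of the 4 Oog genes, Oog3 (log2 -1.23, SE 0.27, adjusted p = 0.00167) and Oog4 (log2 -1.32, SE 0.26, adjusted p = 0.000692) were called, and Oog1 (-0.90) and Oog2 (-0.87) were not. Calls of Tcl1, Tcl1b4, Oog3 and Oog4 were lost without CC_TG replicate 2, and that of Omt2a without CC_G replicate 1. Members of these families share sequence, so counts of single members from unique alignments are uncertain. When TSA was added to A366, none of the 19 stored transcripts was called lower and 2 were called higher. The TSA effect with RK-701 was below that with A366 for 7 of the 19 and for 6 of 6 Tcl1 genes, and below that without an inhibitor for 3 of 19 and 5 of 6 (1.47% and 0.752% of all genes). When CC_TG replicate 2 was left out, these counts were 3 of 19 and 1 of 6 against A366 and 2 of 19 and 0 of 6 against no inhibitor; without CC_G replicate 1 the last of them was 2 of 6. For Btg4 the difference was -1.88 (SE 0.29, adjusted p = 0.00052) and -1.85 (SE 0.29, adjusted p = 0.00216). Btg4 stood at 1283 to 2120 CPM with RK-701 alone and at 1652 to 2037 CPM in IVF, but at 633.9 to 846.2 CPM in the libraries of CC_cont, CC_T and A366 with and without TSA.

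**Figure D3:**
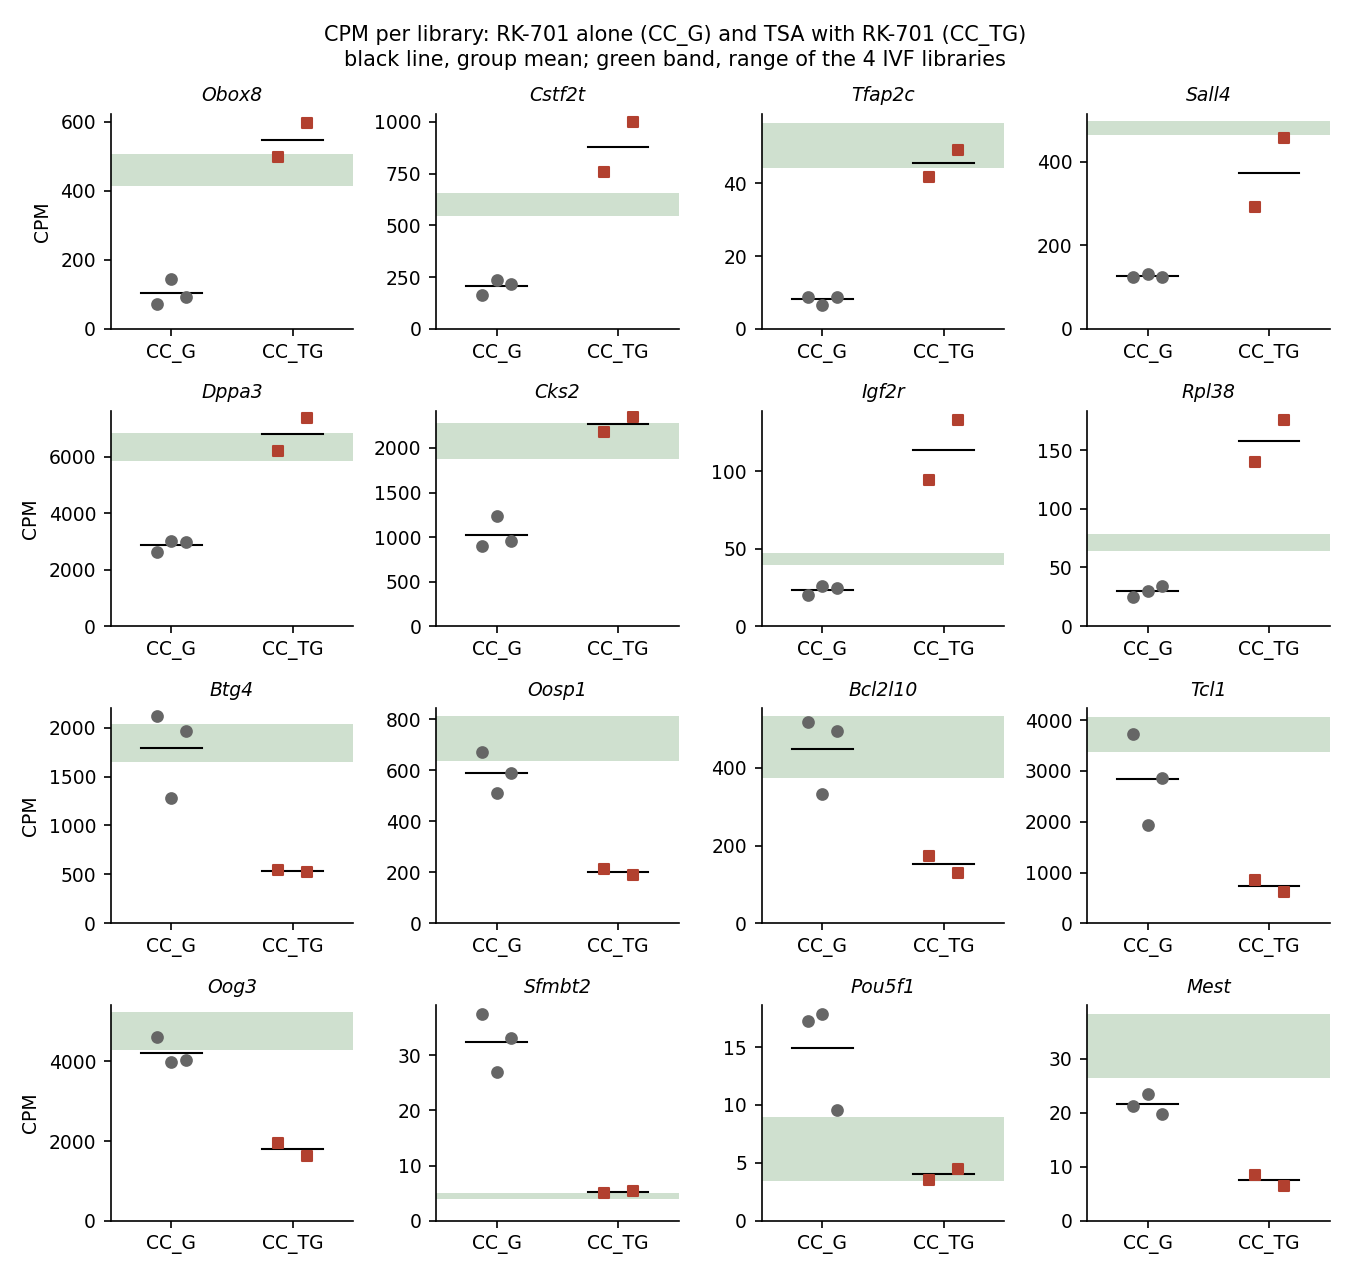
CPM of 16 named genes in each of the 5 libraries (y axis from 0; circles, RK-701 alone; squares, TSA with RK-701; black lines, group means; green bands, range of the 4 IVF libraries). Obox8, Tfap2c and Cks2 moved into or next to the IVF range with TSA, while both CC_TG libraries lay below it for Btg4, Tcl1 and Oog3, where CC_G libraries lay in or nearer to it.

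Genes of ZGA and of totipotency were split. Obox genes encode homeobox proteins that act in genome activation. Obox8 had 498.1 and 597.5 CPM with TSA and 73.4, 144.2 and 92.8 CPM without (log2 2.41, SE 0.24, adjusted p = 2.16e-07), and Obox6 rose by 1.07 (SE 0.22, adjusted p = 0.00116), a call lost without CC_G replicate 1. Obox1 and Obox5, which are oocyte transcripts, fell by 1.11 (SE 0.24, adjusted p = 0.00192) and 1.15 (SE 0.20, adjusted p = 0.000182), calls lost without CC_TG replicate 2. Obox2 (log2 -0.37), Obox3 (0.23) and Obox7 (-0.85) were not called. The Obox genes summed to 1223 to 1496 CPM without TSA and 2310 and 2233 CPM with it, against 2511 to 2927 CPM in IVF. None of the 6 Zscan4 genes, markers of the 2-cell stage, was called, with a median of -0.54. Their sum was 55.1 to 100.5 CPM without TSA and 56.5 and 97.5 CPM with it, against 334.7 to 513.0 CPM in IVF. Of 26 2-cell markers, 4 (15.4%, against 4.91% of all genes) were called lower and none higher, namely Usp17ld, Usp17lc, Tdpoz3 and Gm12794, with changes of -2.37 to -1.47, the calls of the last pair being lost without CC_TG replicate 2 and that of Tdpoz3 also without CC_G replicate 2. Usp17ld and Usp17lc were also called lower when TSA was added to A366 (log2 -1.66 and -1.24). The sum of the 26 markers was nonetheless not lower with TSA. It was 3501 and 3439 CPM, against 2124, 3438 and 2735 CPM without and 2974 to 3748 CPM in IVF.

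The study names Zscan4a, Zscan4d and Obox3 as active again with a G9a inhibitor, and Obox6 and Obox8 as further activated once TSA was added. Their families are described above. Between CC_TG and CC_G, which both had RK-701, Zscan4a had a log2 fold change of 0.04 and Zscan4d of -0.15, and neither was called. The Zscan4 genes summed to 11.5 and 26.5 CPM in CC_cont, against 55.1 to 100.5 CPM in CC_G. Of Cstf2t, Terb2, Cox7b2 and Eif1a, which the study also names, 3 were called higher. Cstf2t, a polyadenylation factor known from the testis, had 758.1 and 998.9 CPM with TSA and 161.6, 235.6 and 218.0 CPM without (log2 2.10, SE 0.23, adjusted p = 5.45e-07). Terb2, which tethers telomeres in meiosis, rose from 38.3 to 43.3 CPM to 108.2 and 131.4 CPM (log2 1.56, SE 0.22, adjusted p = 1.13e-05). Cox7b2, a testis form of a cytochrome oxidase subunit, had no read in the 3 CC_G libraries and 6 and 58 reads with TSA, so it was at least 9.72-fold higher, taking 3 reads per library as the limit a count of 0 allows. Its call was lost without CC_TG replicate 2. Eif1a, a translation initiation factor, had 253.1 and 284.1 CPM with TSA and 143.6 to 164.6 CPM without, a difference of 0.78 (SE 0.26, adjusted p = 0.0354) that was under 2-fold. All 4 were called higher when TSA was added to A366. Of 55 germline and meiosis genes, these 3 included, 9 (16.4%, against 5.33% of all genes) were called higher and 8 (14.5%, against 4.91%) lower, and the median was -0.06. The other called rises were Rpl10l, a testis ribosomal protein (log2 2.05, SE 0.30, adjusted p = 2.12e-05), Rpl39l (1.36), Mov10l1, a helicase of piRNA production (3.07, SE 0.68, adjusted p = 0.002), Tex101 (3.08), Sycp1 (1.37) and Hormad1 (1.09). Tex101 had 65.4 and 57.1 CPM with TSA and 0, 6.44 and 15.7 CPM without. Sycp1, of the synaptonemal complex, had 20.1 and 96.3 CPM with TSA and 20.7 to 24.6 CPM without, so its groups overlapped, and without CC_TG replicate 2 its sign turned. Without CC_TG replicate 2 the calls of Tex101, Rpl39l and Hormad1 were lost too. Tex101 and Rpl39l were also not called without CC_G replicate 1 or 2, Tex101 without CC_TG replicate 1, Hormad1 without CC_G replicate 3, and Sycp1 without CC_G replicate 1 or 2. The 8 that fell were Tuba3b (-2.42), Rec8 (-2.31), Tuba3a (-2.08), Piwil1 (-1.74), Nanos2 (-1.62), Mei4 (-1.52), Mael (-1.32) and Tex14 (-1.17). Of these, only Nanos2 kept its call under every omission of 1 library: without CC_TG replicate 2, Tuba3b, Rec8, Tuba3a, Mei4 and Tex14 were not called, without CC_TG replicate 1, Tuba3b, Rec8, Piwil1, Mael and Tex14, without CC_G replicate 1, Rec8 and Piwil1, and without CC_G replicate 2, Piwil1 and Mei4. With A366 none of the 55 was called lower and 5 were called higher.

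Among 32 regulators of the blastocyst lineages, 6 (18.8%) were called higher and 3 (9.38%) lower, against 5.33% and 4.91% of all genes. Tfap2c, a trophectoderm transcription factor, rose from 8.89, 6.52 and 8.84 CPM to 41.6 and 49.2 CPM (log2 2.49, SE 0.38, adjusted p = 3.25e-05), and IVF libraries held 44.1 to 56.6 CPM. Sall4, of the pluripotency network, rose from 123.4 to 130.4 CPM to 290.4 and 455.4 CPM (log2 1.57, SE 0.26, adjusted p = 9.99e-05), against 464.6 to 496.5 CPM in IVF. Klf5, a factor of both early lineages, rose by 1.26 (SE 0.20, adjusted p = 6.8e-05), Fgf4, a ligand made by the inner cell mass, by 1.38 (SE 0.21, adjusted p = 3.66e-05), and Dppa2, an activator of ZGA genes, by 1.16 (SE 0.24, adjusted p = 0.000849), a call lost without CC_G replicate 1. The sixth was Dppa3. Pou5f1, the pluripotency factor Oct4, had 3.55 and 4.46 CPM with TSA and 17.3, 17.9 and 9.60 CPM without, a fall of 1.89 (SE 0.49, adjusted p = 0.00721) that was lost without either CC_TG library. Elf3 fell by 1.88 and the keratin gene Krt18 by 2.28, both lost without CC_TG replicate 1, and Krt18 also without CC_G replicate 1.

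Genes closest to the treatment are given next, to be read against the 10.2% of all genes called in either direction. Of 16 histone deacetylase genes, Hdac5 alone was called, lower by 1.90 at 0.488 and 0.849 CPM, a call lost without either CC_TG library and without CC_G replicate 1 or 3. None of 10 histone acetyltransferase genes and none of 10 H3K9 demethylase genes passed, with medians of 0.01 and -0.01. Of 14 genes of H3K9 methylation, Cbx3 (heterochromatin protein HP1 gamma) rose by 1.11 (SE 0.19, adjusted p = 0.000104) and Mecom fell by 1.24 (SE 0.30, adjusted p = 0.00386), both lost without CC_TG replicate 2. Of 11 DNA methylation genes, Dppa3 was the one called. Of 14 genes that such inhibitors raise in somatic cells, Gadd45a, a stress sensor, and Mt2, a metallothionein, were called higher (log2 1.48 and 1.05) and Gsn and Clu lower (-3.23 and -1.34), and none of these 4 was called with A366. All 4 calls were lost without CC_TG replicate 2, those of Mt2, Gsn and Clu also without CC_G replicate 1, those of Gsn and Clu without CC_TG replicate 1, and that of Clu without CC_G replicate 2.

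Imprinted genes moved in both directions. Of 6 genes imprinted by H3K27me3, 1 (16.7%) was called lower, against 4.91% of all genes, and none higher. Sfmbt2, whose imprint rests on H3K27me3 and is lost in clones, fell from 37.4, 26.9 and 33.1 CPM to 5.02 and 5.37 CPM (log2 -2.64, SE 0.47, adjusted p = 0.000204), next to the IVF range of 3.90 to 5.00 CPM. It also fell with TSA alone (log2 -2.44) and with TSA and A366 (-2.05), and the differences between these effects were -0.20 (SE 0.63, adjusted p = 0.969) and -0.59 (SE 0.64, adjusted p = 0.71). The other 5 genes of this kind (Smoc1, Slc38a4, Jade1, Gab1 and Platr20) were not called. Of 23 genes imprinted by DNA methylation, Igf2r, the receptor that clears IGF2, rose from 20.0, 25.8 and 24.9 CPM to 94.6 and 133.3 CPM (log2 2.28, SE 0.25, adjusted p = 5.81e-07), above the IVF range of 39.7 to 47.5 CPM. Its effect exceeded that with A366 by 2.52 (SE 0.37, adjusted p = 0.000358). Counts were made without strand, so reads of the antisense RNA that crosses Igf2r cannot be told apart from its own. Usp29 rose by 1.62 (SE 0.22, adjusted p = 1.11e-05), and Mest fell by 1.52 (SE 0.31, adjusted p = 0.000791), Meg3 by 1.90 (SE 0.51, adjusted p = 0.00942) and Plagl1 by 1.27 (SE 0.40, adjusted p = 0.0293). The calls of Meg3 and Plagl1 were lost without CC_TG replicate 1, and that of Plagl1 also without CC_TG replicate 2 or CC_G replicate 1 or 2.

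Called members of the stress and growth lists were all higher, where 5.33% of all genes were. Of 19 p53 targets, Bax, which opens the mitochondrial membrane in apoptosis, rose by 1.63 (SE 0.28, adjusted p = 0.000162), from 6.54 to 8.39 CPM to 18.1 and 29.8 CPM, and Ei24 by 1.07, a call lost without CC_G replicate 1 or 3. Of 21 chaperone genes, Dnaja1 rose by 1.24 (SE 0.23, adjusted p = 0.000365) and Bag3 by 1.06, the latter lost without CC_TG replicate 2 or any CC_G library. Of 16 immediate early and actin-responsive genes, Myc, a driver of ribosome and growth genes, rose from 9.32, 13.9 and 9.86 CPM to 40.7 and 33.4 CPM (log2 1.75, SE 0.29, adjusted p = 0.000108), and Actb by 1.14, a call lost without CC_TG replicate 2. Of 26 DNA replication genes, 4 rose: Gins1 (log2 1.63, SE 0.22, adjusted p = 7.92e-06), Gins3 (1.61, SE 0.24, adjusted p = 2.38e-05) and Gins4 (1.02) of the replicative helicase, and the licensing factor Cdt1 (1.09). The call of Cdt1 was lost without CC_G replicate 1, and that of Gins4 without CC_G replicate 2 or 3 or CC_TG replicate 2. The p53 targets summed to 785.7 to 862.7 CPM in CC_G, below every other library of the series (936.9 CPM or more). They summed to 1145 and 1186 CPM in CC_TG and 1087 and 1253 CPM in CC_cont. With A366 their sum went from 1368 and 1400 CPM to 1040 and 1118 CPM when TSA was added. There no p53 target, chaperone or immediate early gene was called higher, and 1, 2 and 1 were called lower. Of the DNA replication genes, 3 were called higher and 1 lower.

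**Figure D4:**
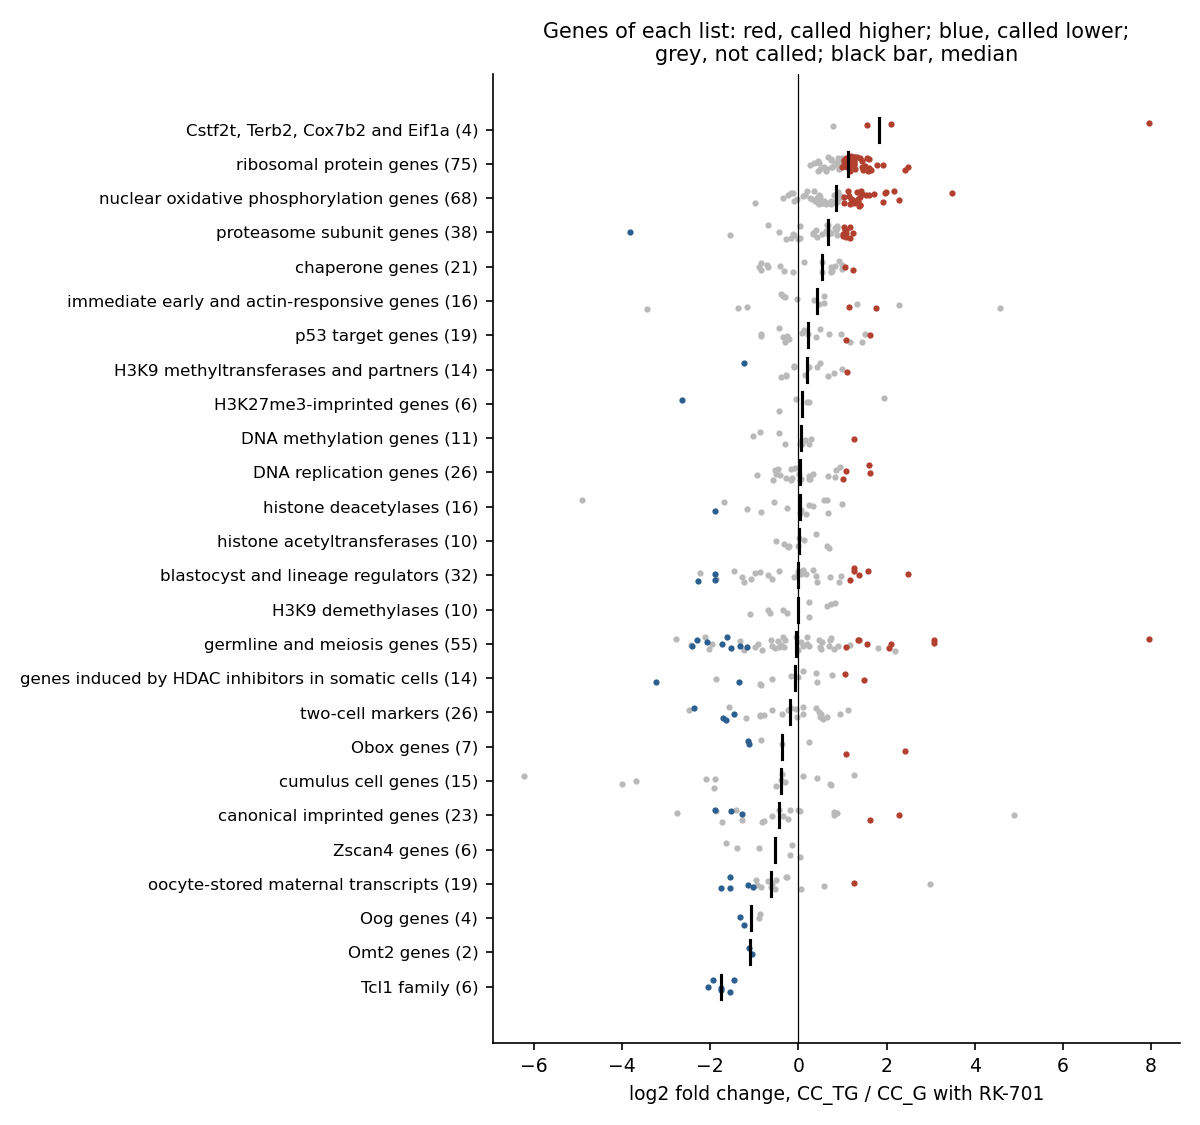
Log2 fold change of CC_TG over CC_G (x axis) for the genes of each list, 1 point per gene, with the number tested in brackets and lists ordered by their median (black bars). Ribosomal protein genes center at 1.13 and the Tcl1 family at -1.75, and Zscan4 genes, with a median of -0.54, hold no called gene.

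The largest changes were in genes at low level. Fut9, a fucosyltransferase, had 69 and 155 reads with TSA and none in the 3 CC_G libraries, and was at least 34.8-fold higher. Nr1h5 and Ppfia2 were likewise at 0 in CC_G and at least 8.71-fold and 7.14-fold higher, but their calls were lost without CC_TG replicate 2 or CC_G replicate 1 or 3, and that of Nr1h5 also without CC_G replicate 2. Dynap, Tmprss11e, Prl3b1, Allc and Cyp2j11 had 1 to 3 reads in all of CC_G, and of these only Dynap was called under every omission of 1 library. For Dynap, with 35 and 121 reads in CC_TG, the ratio was 226.6 with a counting interval of 40.1 to 9008. Dydc2, Apon, C1qtnf4, a secreted C1q-like protein, and Csgalnact2, which starts chondroitin sulfate chains, rose by 4.27 to 4.86. Csgalnact2 had 5.79 and 7.53 CPM with TSA and 0.622, 0.254 and 0.085 CPM without (log2 4.27, SE 0.69, adjusted p = 7.13e-05). Of the falls, Gm7489 and Crabp1, a retinoic acid binding protein, had no read with TSA and were at least 7.69-fold and 4.92-fold lower, both calls lost without either CC_TG library or CC_G replicate 1, and that of Crabp1 also without CC_G replicate 2 or 3. Pcdhb17 had 2 reads in CC_TG and 43, 77 and 53 reads in CC_G, a ratio of 59.5 with a counting interval of 16.2 to 495.6, and its call was lost without CC_TG replicate 2. The rest of this group (Tnc, Proz, Ly6g6f, Gal, Speer4b, Dync1i1, Cyp2c29, Gm11541 and Shc4) had 1 to 3 reads in CC_TG and fitted log2 fold changes of -5.59 to -4.88, which are no bounds, and each lost its call without at least 1 of the CC_TG libraries.

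By class of gene, 48 of 2149 long intergenic noncoding RNAs (2.23%) were called higher and 132 (6.14%) lower, against 5.33% and 4.91% of all genes, with a median of -0.48. They took 1.80 to 2.11% of counts in CC_G and 1.18 and 1.24% in CC_TG, and 1.34 to 1.52% in IVF. CC_cont held 1.41 and 1.63% and A366 alone 1.35 and 1.45%. No library of the series outside CC_G held more than 1.63%, so the RK-701 libraries stood apart here too. When TSA was added to A366 the median of these RNAs was -0.01. Of 2678 processed pseudogenes, 124 (4.63%) were called higher and 35 (1.31%) lower. Their reads can stem from the parent genes, so this count is uncertain.

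X-linked genes were tested in a separate fit that held autosomes and sex chromosomes together. Of 1010 X-linked genes, 69 were called higher (6.83%) and 43 lower (4.26%), with a median of 0. Counts on the X chromosome made up 2.93 to 3.03% of libraries in CC_G and 3.42% in both CC_TG libraries. Xist, the RNA that coats the inactive X and is expressed ectopically in clones, had 44.2 and 26.3 CPM with TSA and 19.7, 29.2 and 17.4 CPM without (log2 0.67, SE 0.40, adjusted p = 0.284). Its groups overlapped, and both lay above the IVF range of 0.349 to 1.24 CPM. The IVF embryos were of both sexes, whereas the SCNT embryos were all female, so these levels are not directly comparable. The largest called rises, among genes read at least 10 times in each CC_TG library, were Tsga8, at 0 in CC_G and at least 7.39-fold higher, Nxf2, an mRNA export factor (log2 3.97, SE 0.92, adjusted p = 0.00296), and Pramel3 (3.83, SE 0.90, adjusted p = 0.00346). Nxf2 had 68.9 and 74.7 CPM with TSA and 1.93, 1.35 and 10.6 CPM without. The largest called falls, by the same rule, were Cnga2, at 0 in CC_TG and at least 8.52-fold lower, Frmpd4 (-4.17) and Gm4985 (-3.82). Among X-linked genes of the groups above, chosen after their values were seen, Rpl39 rose by 2.12 and Rps4x by 1.32, and Bmp15, the partner of Gdf9 in the oocyte, fell by 1.79 (SE 0.24).

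The effect of TSA was also fitted in embryos without RK-701. TSA added to A366 called 797 genes higher (3.09%) and 432 lower (1.67%), and TSA alone 41 higher (0.159%) and 41 lower (0.159%), with 5 libraries behind the counts for RK-701 and 4 behind each of the others. Of the 1376 genes higher with RK-701, 250 (18.2%) were also called higher with A366, which is 31.4% of the 797, and 10 were called lower. Of the 1267 lower genes, 106 (8.37%) were called lower with A366, 24.5% of the 432, and 12 higher. Of the 41 genes higher with TSA alone, 21 (51.2%) were among the 1376, and of the 41 lower, 19 (46.3%) were among the 1267. The test of the difference gave 357 genes (1.38%) with a higher and 194 (0.752%) with a lower TSA effect with RK-701 than without an inhibitor. Against A366 it gave 517 (2.00%) higher and 378 (1.47%) lower. These differences rest on CC_TG replicate 2: without it, 9 of the 551 genes were still called against no inhibitor and 178 of the 895 against A366, with no others. Without CC_G replicate 1 or replicate 3, 285 were called against no inhibitor in each case.

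Among genes named by the size of the difference, Cox5a, a subunit of cytochrome c oxidase, had 36.7 CPM in the higher of the 2 CC_TG libraries. It had 1.27 to 2.80 CPM with RK-701 alone, and the log2 fold change fitted over both CC_TG libraries was 3.48. Its TSA effect exceeded that without inhibitor by 3.68 (SE 0.78, adjusted p = 0.0131) and that with A366 by 4.73 (SE 0.80, adjusted p = 0.00118). Cby3 differed by 3.34 in both tests. Pparg, a nuclear receptor of fat metabolism, had 0.232 and 0.209 CPM with TSA and RK-701 and 5.28, 4.06 and 7.22 CPM with RK-701, while with A366 it had 0 to 0.252 CPM without and 0.676 to 0.929 CPM with TSA, a difference in effect of -7.28 (SE 1.36, adjusted p = 0.00246).

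**Figure D5:**
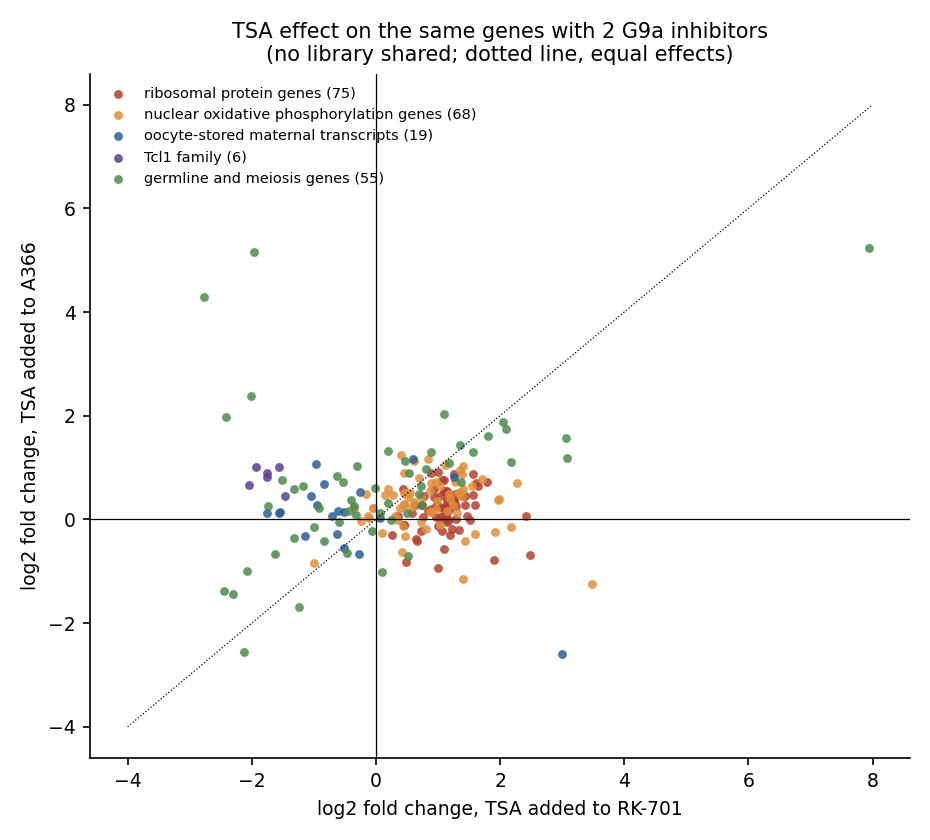
Log2 fold change when TSA was added to RK-701 (x axis) and to A366 (y axis) for the genes of 5 lists, 1 point per gene; the dotted line marks equal effects. The ribosomal protein genes (red) center at 1.13 on the x axis and 0.24 on the y axis, and the Tcl1 family (purple) at -1.75 and 0.85.

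The study defines 879 reprogramming-resistant genes (RRGs). They rise by the 2-cell stage in IVF embryos of an earlier dataset and are low in SCNT embryos of this series relative to IVF. The low level was judged on IVF and untreated SCNT embryos, and not on the 5 libraries compared here. All 879 were tested, and 148 (16.8%, against 5.33% of all genes) were called higher with TSA and 20 (2.28%, against 4.91%) lower, with a median of 0.44. Their sum rose from 29269 to 36337 CPM in CC_G to 52747 and 55634 CPM in CC_TG, below the IVF range of 60915 to 71711 CPM. With A366 the same step called 159 higher and 13 lower, where 3.09% and 1.67% of all genes were called. Without CC_TG replicate 2, 91 RRGs were called higher and 6 lower. Over all genes, CC_cont differed from IVF at 2270 genes called higher (8.80%) and 1681 called lower (6.52%). Of the 1376 genes higher with TSA, 191 (13.9%) were among those 1681 and 98 (7.12%) among the 2270, and of the 1267 lower genes 177 were among the 2270 and 209 (16.5%) among the 1681.

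The distance to IVF, computed on 17994 autosomal genes (mean TPM over 1) as the Euclidean distance of log2(TPM + 1) to the mean of the IVF libraries, was 126.3 to 134.5 in CC_G (mean 129.4, SD 4.44, n = 3) and 124.2 and 127.8 in CC_TG (mean 126.0, SD 2.56, n = 2). The groups overlapped, and an exact two-sided permutation test gave p = 0.6, where the smallest p that 2 against 3 libraries allow is 0.2. CC_cont stood at 143.0 and 170.0, and adding TSA to A366 took the distance from 144.3 and 147.3 to 120.2 and 124.1.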

How the data were processed

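RNA-seq was made from pools of late 2-cell embryos (SMART-Seq HT, paired reads). After trimming (Trimmomatic) and alignment to mm10 (STAR, unique hits kept), the authors deposited raw counts per gene from featureCounts (v1.6.2, exons, no strand), with GENCODE names (55134 of 55375 gene rows matched). The 1755056 transposable element rows were not used. Counts were fitted with edgeR 4.0.16 (quasi-likelihood, TMM, 11 groups, all 25 libraries, autosomal genes averaging at least 1 read, Benjamini-Hochberg adjustment). Named protein-coding genes were the 12 largest non-overlapping called changes per direction (10 reads or more per library where higher), the 6 most abundant called per direction, called list members, members of lists of at most 7 genes, 5 per direction in each difference test, and Xist with 3 X-linked genes per direction; families noted as chosen after their values were seen are exceptions. The members and lists were chosen with earlier results of these data known. Groups came from the labels. Alternatives were DESeq2 1.42.0, other scaling, filters and sets of libraries, a replicate block, and leaving out each library. Depth was 10472261 to 15589564 counts in the libraries compared. Counting intervals (95%) and floors cover counting error only. Scripts were tested on simulated counts.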

Additional observations from a re-analysis of the deposited data

Results flagged for a closer look

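The results here were singled out because a test of the difference between 2 settings of the same contrast passed its threshold. The TSA effect with RK-701 differed from that without an inhibitor at 551 genes and from that with A366 at 895 genes. Without CC_TG replicate 2 these counts were 9 and 178, and without CC_G replicate 1 or replicate 3 the first was 285 in each case, so the values below rest largely on single libraries. By list, the effect with RK-701 was the higher of the 2 for 22 (no inhibitor) and 29 (A366) ribosomal protein genes and for 20 and 12 genes of oxidative phosphorylation. In the fit lacking CC_TG replicate 2 these were 1 and 12 ribosomal protein genes and 1 and 3 genes of oxidative phosphorylation. The effect with RK-701 was the lower for 5 and 6 Tcl1 family genes and for 3 and 7 oocyte-stored transcripts, and the higher for 1 stored transcript in each test, Dppa3 against no inhibitor and Khdc3 against A366. The lower counts without that library were 0 and 1 Tcl1 family genes and 2 and 3 stored transcripts.

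Single genes with a higher effect than without an inhibitor were C1s1 (log2 difference 8.41), Ppp1r42 (4.40), Cox5a (3.68), Gm10762 (3.58) and Cby3 (3.34). Those with a lower effect were Rnls (-8.40), Olfr214 (-7.26), Gm17535 (-7.18), Cfap206 (-6.96) and Adgrl2 (-5.58). Against A366 the higher effects were in Vnn1 (12.45), Neurl3 (8.98), C1qtnf4 (5.73), Khdc3 (5.58) and Cox5a (4.73), and the lower in Gm8011 (-7.50), Pparg (-7.28), Pcdhb17 (-6.41), Mroh2b (-6.30) and Zfp986 (-4.82). Most of these genes lie near or at 0 in one group, where a fitted value is not a bound on the fold. Of C1s1, Ppp1r42, Gm17535, Neurl3, Khdc3 and Zfp986, none was called in the comparison of TSA and RK-701 with RK-701 itself.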

How the results depend on the processing

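The count of called genes (2643) stayed within 1.5 times under DESeq2 (3109), RLE factors (2625), no filter (2803), 10 reads in 2 libraries (2750), the 15 latrunculin A libraries (2534), sex chromosomes included (2739) and the 5 compared libraries alone (3451, of which 1941 lower). Leaving out 1 library gave 1300 to 2602 genes, 856 to 1364 higher and 444 to 1238 lower, with 91 to 157 RRGs higher and 6 to 20 lower. RRGs called lower numbered 34 under DESeq2 and 35 in the 5 libraries alone. The count for TSA effect: with RK-701 minus without inhibitor (551) gave 1028 under DESeq2, 891 with no filter, 361 in the 15 libraries and 9 to 490 when 1 library was left out. That for TSA effect: with RK-701 minus with A366 (895) gave 1514 under DESeq2, 1330 with no filter and 178 to 876 when 1 library was left out. TSA alone (82) gave 407 under DESeq2. The causes were not tested beyond what the smaller sets of libraries make plain. Same-numbered libraries did not deviate together (correlations of 0.01), so no pairing by number was seen. With so few libraries this does not tell whether any of them shared a session. With the replicate block the counts were 2358 for TSA and RK-701, 268 and 633 for the differences from no inhibitor and A366, and 32 for TSA alone. The sign of Sycp1 turned without CC_TG replicate 2 (log2 -0.17; 2.09 without CC_TG replicate 1). Of 197 named calls, 122 to 175 held when 1 library was left out and 182 to 197 under the other settings, DESeq2 giving 189 of 196. The distance ratio to IVF was 95.3 to 101.2% under every alternative. With 2 and 3 libraries, changes under 2-fold and genes at few reads are poorly resolved.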
